A study of Mus musculus with 12 samples.

Results

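The genes described here drive the cell division cycle, and they were followed across all 12 corneal arrays of the study. A list of 36 genes was used, made up of 10 genes of DNA replication and 26 genes of mitosis, and each gene was represented by its brightest probe set that carries that gene symbol alone. Of the 36 listed genes 35 were measured this way, out of 18194 genes in all, and Ccnb1 was not analysed here. All 35 lay above the filter on low values, and together they have 80 probe sets.

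Whole corneas of C57BL/6J mice were measured on Affymetrix arrays with 1 array per sample, and the values are linear probe-set intensities scaled to a common level. The 8 intact corneas form 4 groups of 2 biological replicates: wild type (WT), ApoE-/- (ApoeKO), Dscr-1-/- (Dscr1KO) and mice lacking both genes (double KO). The 4 sutured corneas have 1 array each: WT at day 5 and Dscr-1-/- at day 5 after suturing, and WT and a Dscr-1 transgenic mouse (Dscr1Tg) at day 7. The gene Dscr1, now called Rcan1, encodes an inhibitor of the phosphatase calcineurin, whereas the product of Apoe is the apolipoprotein E of cholesterol-carrying particles. The labels give neither the promoter of the transgene nor the design of the null alleles, and they do not say whether an RNA sample came from 1 cornea. In a suture model, stitches placed in the cornea provoke inflammation and vessel growth.

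The cornea is covered by a stratified epithelium that is renewed throughout life by division of its basal cells, so that RNA of dividing cells is found in the resting tissue. Genes of the S phase, such as those of the MCM helicase and of nucleotide supply, are switched on by E2F factors around the G1/S transition. Genes of mitosis are repressed by the DREAM complex in resting cells and switched on late in the cycle by MuvB together with B-MYB and FOXM1, and many of them have a CHR element and CCAAT boxes close to the start of transcription. In RNA from a whole tissue, fewer cycling cells and less RNA per cycling cell cannot be told apart.

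Several points about the samples touch every result. Markers of corneal epithelium were high on all arrays (summed intensity of Krt12, Aldh3a1, Pax6, Tkt and Clu between 19682 and 30856.3). The Rcan1 probe set read from 581.3 to 668.2 in the 4 intact corneas with Dscr1 and from 331.7 to 477.5 in the 4 without it, and the labels do not say whether this probe set covers the deleted part. The Apoe probe set read 849.3 and 7.5 in the ApoeKO replicates, and 1272.0 and 316.8 in the Dscr1KO replicates. The Dscr1KO library with the lower Apoe value carries the name of the ApoE-/- genotype in its source label, against its title. Those 2 libraries, labelled ApoeKO replicate 1 and Dscr1KO replicate 2, were also left out together where a count rests on them. Xist, an RNA of female cells, read from 4104.0 to 5385.2 in both ApoeKO, both Dscr1KO and the first double KO replicate, and 19.6 or less on the other 7 arrays.

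Markers of other cell types also differed between the groups. Summed over 6 of 8 listed neutrophil markers, intensity was 121.9 to 289.1 in the 4 intact corneas with Dscr1 and 8662.4 to 19744.2 in the 4 without it. Over 10 of 10 markers of keratinisation the ranges were 276.3 to 360.4 and 17830.0 to 33291.1, and over 8 of 8 macrophage markers they were 376.1 to 1037.5 and 3171.4 to 5842.4. The ranges were 1811.9 to 3064.2 and 14980.5 to 20661.8 over 5 of 5 markers of conjunctiva and goblet cells, and 103.8 to 129.7 and 766.7 to 1448.5 over 8 of 8 markers of blood endothelium. The part of these cells in the cell cycle results was not tested.

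The promoters of 6 members are shown, the 3 replication genes (Mcm2, Tyms and Mcm7, none of them called) and the 3 mitosis genes (Kif23, Melk and Mad2l1) with the largest changes without Dscr1 among members with a promoter sequence at hand. Each line gives the 250 bases before the RefSeq start (build GRCm38.p6), read along the strand of the gene, with matches to the searched motifs in capitals.
Mcm2, chr6:88898781-88899030, minus strand: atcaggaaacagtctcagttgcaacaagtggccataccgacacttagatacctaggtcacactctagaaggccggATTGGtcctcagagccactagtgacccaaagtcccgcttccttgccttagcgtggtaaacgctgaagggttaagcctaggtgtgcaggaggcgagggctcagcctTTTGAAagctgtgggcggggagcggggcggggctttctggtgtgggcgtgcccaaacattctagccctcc
Mcm7, chr5:138171884-138172133, minus strand: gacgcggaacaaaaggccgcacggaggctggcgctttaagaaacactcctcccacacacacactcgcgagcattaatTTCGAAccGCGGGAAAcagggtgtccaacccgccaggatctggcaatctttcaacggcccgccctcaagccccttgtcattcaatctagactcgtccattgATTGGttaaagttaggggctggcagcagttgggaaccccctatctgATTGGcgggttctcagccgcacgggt
Tyms, chr5:30073626-30073875, minus strand: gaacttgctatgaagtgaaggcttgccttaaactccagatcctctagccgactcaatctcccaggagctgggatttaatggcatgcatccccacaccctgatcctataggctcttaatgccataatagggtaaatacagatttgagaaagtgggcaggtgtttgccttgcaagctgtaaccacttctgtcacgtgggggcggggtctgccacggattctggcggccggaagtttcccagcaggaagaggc
Kif23, chr9:61946800-61947049, minus strand: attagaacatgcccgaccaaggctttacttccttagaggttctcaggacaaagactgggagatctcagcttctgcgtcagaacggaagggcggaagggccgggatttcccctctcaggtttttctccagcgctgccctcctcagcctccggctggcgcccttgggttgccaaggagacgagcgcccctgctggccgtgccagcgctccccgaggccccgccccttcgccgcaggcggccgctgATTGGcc
Melk, chr4:44300667-44300916, plus strand: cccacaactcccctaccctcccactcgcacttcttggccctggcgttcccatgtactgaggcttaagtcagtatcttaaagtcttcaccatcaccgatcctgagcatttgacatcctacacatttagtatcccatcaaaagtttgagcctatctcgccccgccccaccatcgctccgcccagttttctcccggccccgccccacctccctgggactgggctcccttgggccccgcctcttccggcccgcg
Mad2l1, chr6:66534971-66535220, plus strand: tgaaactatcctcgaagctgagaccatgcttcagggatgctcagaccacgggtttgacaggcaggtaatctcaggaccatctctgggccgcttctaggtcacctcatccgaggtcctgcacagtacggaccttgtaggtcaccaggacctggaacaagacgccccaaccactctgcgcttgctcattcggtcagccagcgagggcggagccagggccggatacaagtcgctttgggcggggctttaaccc
Letters searched on both strands were the CHR element (TTTGAA or TTCGAA), the CCAAT box, and an E2F site (TTTCGCGC, TTTGGCGC, TTTCCCGC or TTTGCCGC). Mcm7 has an E2F match from 165 to 158 bases before the start, a CHR match from 173 to 168, and CCAAT boxes from 72 to 68 and from 26 to 22. Mcm2 has a CCAAT box from 175 to 171 and a CHR match from 70 to 65, Kif23 has a CCAAT box from 7 to 3, and Tyms, Melk and Mad2l1 have no match in this window.

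Promoters in the same RefSeq table were found for 30 members, and were not found for Aurkb, Ccna2, Foxm1, Kif20a, Mcm4 and Tpx2. The E2F letters were present in 3 of 9 replication promoters (33.3%), in 1 of 21 mitosis promoters (4.76%) and in 1.91% of all 27025 promoters. The CCAAT box was present in 8 of 9 replication promoters (88.9%) and 15 of 21 mitosis promoters (71.4%), against 34.5% of all. CHR letters were present in 7 of 21 mitosis promoters (33.3%), 2 of 9 replication promoters (22.2%) and 17.4% of all. The same 7 mitosis and 2 replication promoters also hold a CCAAT box, a pair found in 6.21% of all promoters. The windows may overlap between neighbouring genes, and a match describes letters only.

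**Figure D1:**
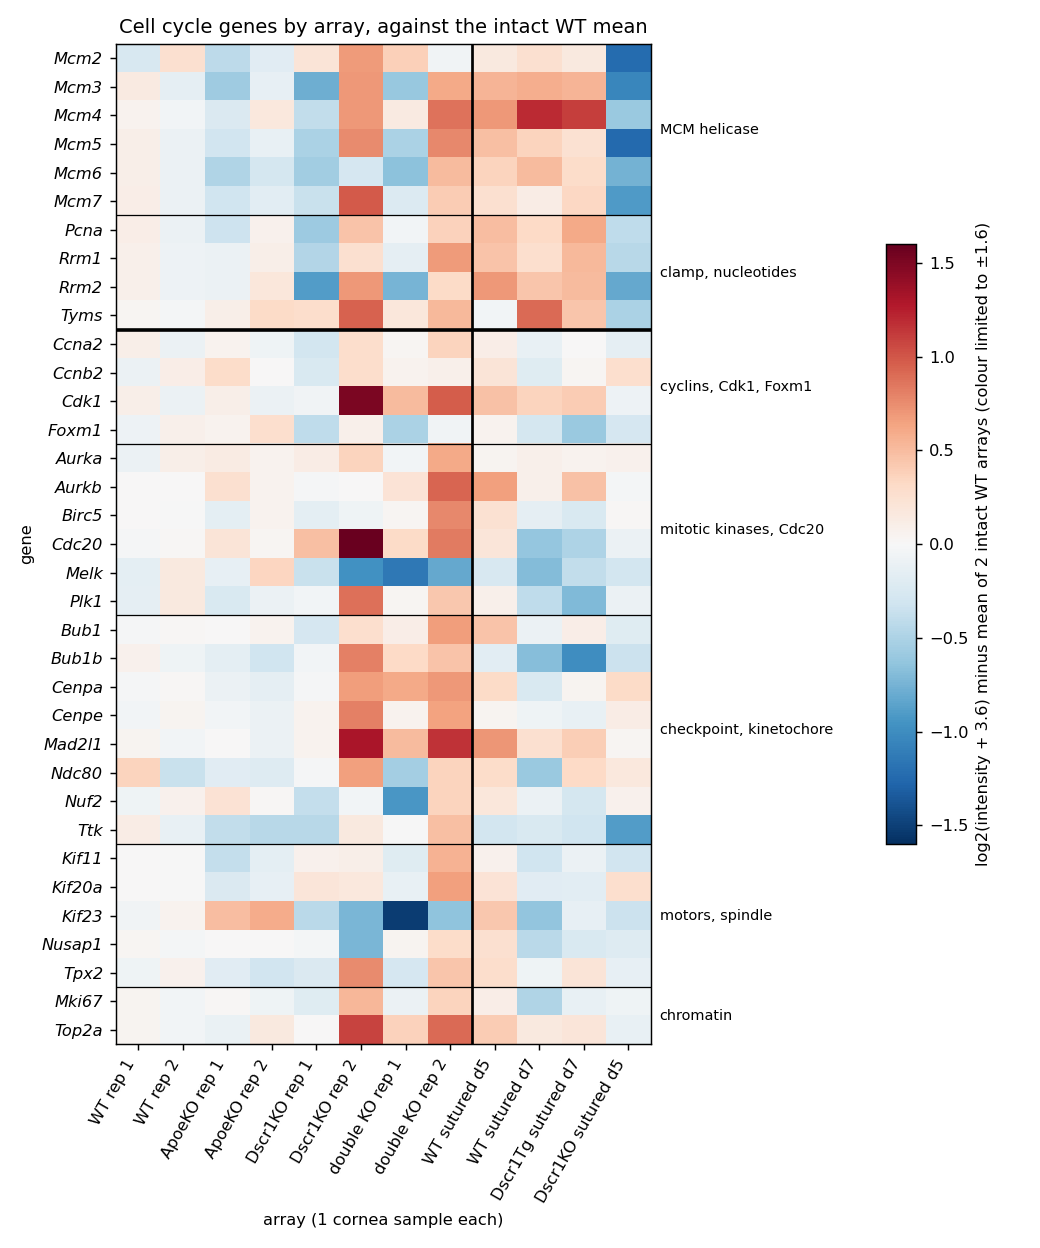
Level of each of the 35 genes on each of the 12 arrays, as log2(intensity + 3.6) minus the mean of the 2 intact WT arrays (colour; red higher, blue lower), with genes grouped by role and a vertical line between intact and sutured corneas. Kif23 and Melk are blue in all 4 intact corneas without Dscr1, and the MCM genes are blue on the sutured Dscr1KO array.

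The first question was how the cell cycle genes differ between intact corneas with and without Dscr1. Kif23 and Melk fell, Cdc20 and Cenpa rose, and no replication gene passed the test. The comparison set the 4 intact corneas without Dscr1 against the 4 with it, averaged over the Apoe labels, with limma, and a gene was called at an adjusted p under 0.05. Of the 35 members 4 were called, 2 in each direction, while 31.7% of the 12706 genes tested were called (16.3% higher and 15.4% lower). The members' share is thus below that of all genes. Another 5 members had an unadjusted p under 0.05 in limma without being called (9 in all, 7 of them higher). The median change was 0.21 on the log2 scale over the members, with 27 of 35 higher, and -0.02 over all genes tested.

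Kif23 encodes a kinesin of the centralspindlin complex, which bundles microtubules at the midzone so that cells can separate. Its intensity was 195.1 and 212.0 for WT, 286.8 and 309.0 for ApoeKO, 150.0 and 121.5 for Dscr1KO, and 68.5 and 128.0 for double KO. All 4 corneas without Dscr1 lay below all 4 with it. The log2 change was -1.10 ± 0.20 (SE, 4 arrays against 4; adjusted p = 0.00524, limma), and a second probe set of the gene gave -1.21 ± 0.29 (adjusted p = 0.0178, limma on every probe set). Kif23 was called under all 17 alternatives, at adjusted p from 0.00189 to 0.0407.

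Melk, a kinase of proliferating and progenitor cells, is measured by 1 probe set. It read 230.3 and 290.1 for WT, 235.4 and 328.0 for ApoeKO, 201.3 and 129.9 for Dscr1KO, and 115.2 and 144.8 for double KO. Here too the groups with and without Dscr1 did not overlap. Melk fell by 0.87 ± 0.19 on the log2 scale (adjusted p = 0.0118, limma) and was called under 15 of 17 alternatives, at adjusted p from 0.00313 to 0.0616.

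Cdc20 activates the anaphase-promoting complex. Its intensity was 630.1 and 651.8 for WT, 744.4 and 655.7 for ApoeKO, 896.1 and 1924.2 for Dscr1KO, and 790.4 and 1142.8 for double KO. The lowest cornea without Dscr1 lay just above the highest with it, and Dscr1KO replicate 2 stood far above the rest. Cdc20 rose by 0.74 ± 0.24 (adjusted p = 0.0492, limma), and its other 2 probe sets gave 0.80 (adjusted p = 0.00722) and 1.44 (adjusted p = 0.0705) in limma. The call held under 5 of 17 alternatives only, at adjusted p from 0.00168 to 0.147, and the change was 0.46 without Dscr1KO replicate 2 and 1.01 without Dscr1KO replicate 1.

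Cenpa is the histone H3 variant that marks centromeres. It read 152.8 and 157.9 for WT, 145.7 and 139.6 for ApoeKO, 153.5 and 250 for Dscr1KO, and 239.1 and 254.1 for double KO. Dscr1KO replicate 1 lay within the range of WT, and the other 3 corneas without Dscr1 lay above every cornea with it. Cenpa rose by 0.55 ± 0.16 (adjusted p = 0.0374, limma), was called under 8 of 17 alternatives (adjusted p from 0.00151 to 0.121), and its second probe set gave 0.18 (adjusted p = 0.514, limma). For both rising genes the call was lost without the 2 doubtful libraries, which leaves Kif23 and Melk as the 2 members called. That fit called fewer of all genes too, 20.4% (12.1% higher and 8.37% lower) against 31.7% with all arrays.

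**Figure D2:**
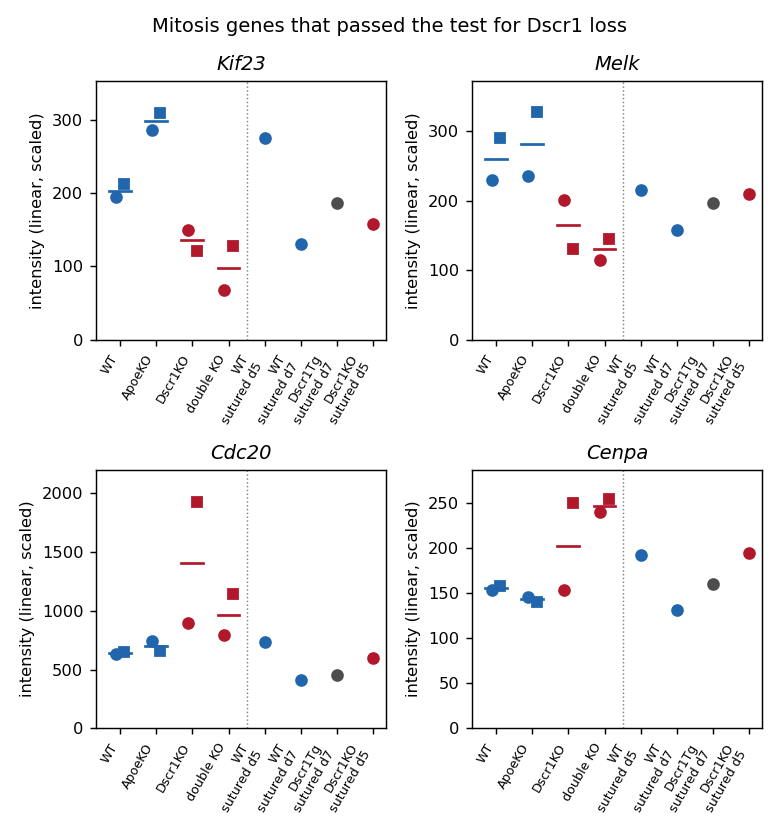
Intensity (linear, scaled) of the 4 genes called for Dscr1 loss on each array; circles are replicate 1 or the only array, squares replicate 2, lines the mean of 2 replicates, blue with Dscr1, red without it and grey transgenic. Kif23 and Melk are lower in the 4 intact corneas without Dscr1, and Cdc20 and Cenpa are higher in at least 3 of these 4.

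Among the genes of the spindle checkpoint and the kinetochore, the structure that holds chromosomes to the spindle, Cenpa was the member called of 8. Mad2l1, whose protein restrains Cdc20 until chromosomes are attached, read 167.2 and 158.2 for WT, 163.6 and 151.6 for ApoeKO, 168.5 and 409.9 for Dscr1KO, and 233.2 and 368.8 for double KO. The groups did not overlap, but Dscr1KO replicate 1 exceeded the highest cornea with Dscr1 by little, and the change of 0.78 ± 0.28 was not called (adjusted p = 0.0643, limma). Cenpe, a kinetochore motor, likewise did not overlap, with 63.2 to 69.7 in the 4 corneas with Dscr1 and 70.0 to 121.4 in the 4 without (adjusted p = 0.168, limma). In all, 5 of 35 members did not overlap between these groups (Cdc20, Mad2l1 and Cenpe higher, Kif23 and Melk lower), against 34.6% of the genes tested (16.8% higher and 17.8% lower). Bub1b, a checkpoint kinase, had an uncalled change of 0.51 ± 0.20 (adjusted p = 0.0933, limma), and the changes of Bub1, Ndc80, Nuf2 and Ttk lay between -0.31 and 0.25.

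Cdk1, the kinase that starts mitosis, read 132.7 and 116.2 for WT, 132.4 and 115.9 for ApoeKO, 119.0 and 358.0 for Dscr1KO, and 178.4 and 245.9 for double KO. Only Dscr1KO replicate 1 of the corneas without Dscr1 lay within the range of the others, and the change of 0.73 ± 0.31 was not called (adjusted p = 0.114, limma). It was 0.34 without Dscr1KO replicate 2 and 1.12 without Dscr1KO replicate 1. Its partners showed small differences, 0.09 ± 0.16 for Ccna2 and -0.03 ± 0.16 for Ccnb2. Foxm1, the transcription factor of the mitotic programme, read 45.4 and 51.5 for WT, 50.3 and 59.1 for ApoeKO, 35.5 and 51.4 for Dscr1KO, and 33.0 and 46.1 for double KO. Its change of -0.31 ± 0.20 was not called (adjusted p = 0.272, limma).

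The remaining mitotic kinases and their partners, Aurka, Aurkb, Birc5 and Plk1, had uncalled changes between 0.17 and 0.41. Among the motors and spindle proteins Kif23 was the member called of 5. Kif11, which pushes spindle poles apart, read 47.5 to 63.2 in the 4 corneas with Dscr1 and 54.8 to 93.5 in the 4 without it, and the changes of Kif11, Kif20a, Nusap1 and Tpx2 lay between -0.11 and 0.31.

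Top2a untangles DNA before chromosomes separate, and Mki67 coats mitotic chromosomes and is the standard marker of cycling cells. Top2a read 377.3 and 356.7 for WT, 338.6 and 409.6 for ApoeKO, 368.4 and 782.1 for Dscr1KO, and 475.5 and 685.6 for double KO. Mki67 read 652.9 and 614.9 for WT, 640.7 and 602.5 for ApoeKO, 554.1 and 913.8 for Dscr1KO, and 595.3 and 813.6 for double KO. In both groups without Dscr1 the second replicate was above the range of the corneas with Dscr1 for both genes, and the first replicates of Mki67 were below it. The changes were 0.58 ± 0.24 for Top2a (adjusted p = 0.104, limma) and 0.16 ± 0.18 for Mki67 (adjusted p = 0.517, limma), neither of which was called.

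None of the 10 replication genes was called by limma, with 1 at an unadjusted p under 0.05, and their median change was 0.20. Mcm5, a subunit of the helicase that unwinds DNA at replication forks, read 446.7 and 393.7 for WT, 337.6 and 386.7 for ApoeKO, 293.0 and 710.8 for Dscr1KO, and 294.4 and 717.2 for double KO. In each group without Dscr1 the first replicate was below and the second above all 4 corneas with Dscr1. The change of 0.23 ± 0.34 therefore had an error larger than itself (adjusted p = 0.633, limma). Mcm2, with the lowest p of the 10, read 107.5, 156.7, 95.9 and 114.2 in the corneas with Dscr1 and 150.4, 209.8, 170.2 and 124.2 in those without (0.45 ± 0.19, adjusted p = 0.111, limma). Its second probe set gave -0.01 ± 0.33 (adjusted p = 0.982, limma on every probe set).

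Pcna, the sliding clamp of DNA polymerases, read 1046.1 and 904.9 for WT, 775.4 and 1021.5 for ApoeKO, 650.6 and 1341.9 for Dscr1KO, and 941.4 and 1261.4 for double KO. The corneas without Dscr1 lay on both sides of those with it, at a change of 0.12 ± 0.23 (adjusted p = 0.736, limma). For ribonucleotide reductase, which makes deoxynucleotides, the changes were 0.08 ± 0.22 for Rrm1 and -0.18 ± 0.36 for Rrm2. Tyms, which makes thymidylate, was dim on every array, from 5.0 to 19.9, close to the added constant of 3.6, and its change of 0.38 ± 0.26 was not called (adjusted p = 0.302, limma).

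The replicates without Dscr1 differed from each other more than those with it, with larger median differences in the replication than in the mitosis genes. In Dscr1KO, all 10 replication genes were higher in replicate 2 than in replicate 1, 6 of them by 2-fold or more, at a median log2 difference of 1.06. Of all genes tested 13.0% differed 2-fold between these 2 arrays, and their median difference was -0.07. Among the mitosis genes 21 of 25 were higher in replicate 2, 4 of them 2-fold, with a median of 0.57. In double KO, 9 of 10 replication genes were higher in replicate 2 (median 0.78, 4 past 2-fold) and 25 of 25 mitosis genes were (median 0.53, 1 past 2-fold), where 9.03% of all genes differed 2-fold. No member differed 2-fold between the WT replicates or the ApoeKO replicates, where 1.69% and 3.0% of all genes did. All 10 replication genes were nonetheless higher in replicate 2 in ApoeKO (median 0.23), against 1 of 10 in WT (median -0.17).

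The neutrophil marker sum was also higher in replicate 2 than in replicate 1. It was 19744.2 against 8662.4 in Dscr1KO and 15776.2 against 10855.9 in double KO. In Dscr1KO S100a8, S100a9 and Mmp9 were higher in replicate 2. Csf3r (265.6 in replicate 1 and 173.4 in replicate 2), Cxcr2 (44.6 and 21.0) and Mmp8 (38.1 and 33.3) were lower in replicate 2. In double KO only Mmp8 was lower in replicate 2 (127.5 and 38.6). The macrophage sum was lower in replicate 2 in Dscr1KO and higher in double KO. Dscr1KO replicate 2 is the library with conflicting labels, and double KO replicate 1 also had higher photoreceptor markers (a summed intensity of 3236.1 over 4 of 5 markers, against at most 256.9 on the other arrays). The double KO replicates differed in sex as well, with Xist at 4256.9 in replicate 1 and 19.6 in replicate 2. Both Dscr1KO replicates were high in Xist (4104.0 and 5385.2). The part of these differences in the spread of the cell cycle genes was not tested. Without Dscr1KO replicate 1, limma called 13 members instead of 4, and 11 of them rose: Bub1b, Cdc20, Cdk1, Cenpa, Cenpe, Mad2l1, Mcm2, Mcm4, Mcm7, Plk1 and Top2a. Kif23 and Melk fell in that fit as well, and 44.7% of all genes tested were called in it (21.6% higher and 23.1% lower). The members' share was below that of all genes over both directions and for falling genes, but above it for rising genes. Its only Dscr1KO array is replicate 2, the library with conflicting labels. Without WT replicate 2 or ApoeKO replicate 2 the count was 1 (17.1% and 17.8% of all genes), and without WT replicate 1 or ApoeKO replicate 1 it was 2 (19.1% and 19.4%).

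**Figure D3:**
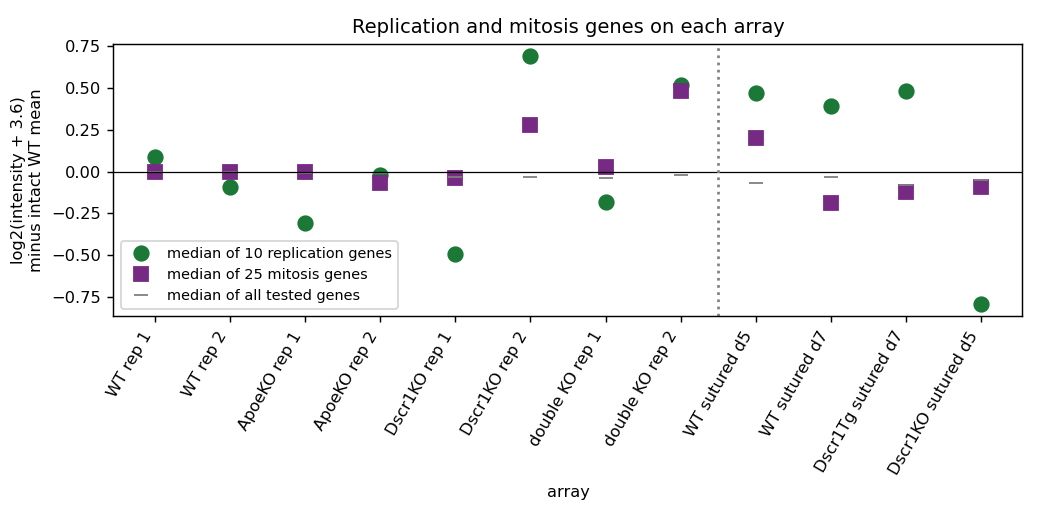
Median over the 10 replication genes (green circles), the 25 mitosis genes (purple squares) and all genes tested (grey dashes) on each array, as log2(intensity + 3.6) minus the intact WT mean. Replication medians are -0.49 and 0.69 in the Dscr1KO replicates, -0.18 and 0.52 in double KO, 0.47 and 0.39 in sutured WT and -0.79 in sutured Dscr1KO.

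Pairs of genotypes were then compared in the same limma fit, except Dscr1KO against ApoeKO, which was not fitted. In double KO against WT, 2 of 35 members were called, both lower, with 20.1% of all genes called (8.74% lower): Kif23 (-1.09 ± 0.28, adjusted p = 0.0312) and Melk (-0.98 ± 0.27, adjusted p = 0.0403). Against ApoeKO, whose corneas share the Apoe label, double KO again had Kif23 (-1.63 ± 0.28, adjusted p = 0.00789, limma) and Melk (-1.08 ± 0.27, adjusted p = 0.0300, limma) called lower, with 19.6% of all genes called (8.61% lower). These 2 comparisons share the double KO arrays. The count of 2 in double KO against WT fell to 0 when any 1 of the WT or ApoeKO replicates was left out, was 1 without either double KO replicate and was 6 without either Dscr1KO replicate. Without double KO replicate 1 the 1 member called was Birc5, which rose, at 12.4% of all genes called, and without replicate 2 it was Kif23, at 17.2%. Of the 6 members called without a Dscr1KO replicate 4 rose, with 31.3% of all genes called. Every fit that called 0 members also called fewer of all genes than the 20.1% of the full fit, such as 14.4% and 14.3% without an ApoeKO replicate. Without both doubtful libraries Cenpa was called higher and Melk lower, at 23.6% of all genes, and Kif23 was not called. The change of Kif23 in double KO against WT was -0.65 without double KO replicate 1 and -1.52 without replicate 2, and the call held under 11 of 18 alternatives. In double KO against ApoeKO, leaving out 1 array at a time gave changes from -2.06 to -1.2 for Kif23 and from -1.32 to -0.85 for Melk.

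In Dscr1KO against WT no member was called by limma, with 2 at an unadjusted p under 0.05 and 11.8% of all genes called (7.86% higher and 3.9% lower). Those 2 were Cdc20 (1.03 ± 0.34, adjusted p = 0.0877, limma) and Melk (-0.66 ± 0.27, adjusted p = 0.153, limma). Without Dscr1KO replicate 1, which leaves the library with conflicting labels as the only Dscr1KO array, 10 members were called, 8 of them higher, and 30.4% of all genes were called (14.2% higher).

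Apoe loss, taken by the labels, gave no call among the members. The labels are in doubt here: ApoeKO replicate 1 read 849.3 for Apoe, where WT read 1030.5 and 776.5. Dscr1KO replicate 2, with the ApoE-/- source label, is part of the other Apoe comparisons. Xist read 4622.1 and 4598.0 in ApoeKO and 14.9 and 8.9 in WT, so genotype and sex cannot be told apart between these groups. In ApoeKO against WT limma called 0 of 35, with 0 at an unadjusted p under 0.05, and 0.0236% of all genes. The lowest p belonged to Kif23, at 0.54 ± 0.28, and to Ttk, a checkpoint kinase, at -0.42. In double KO against Dscr1KO limma called 0 of 35 (0 at an unadjusted p under 0.05; 0.0236% of all genes), with Nusap1 at 0.54 and Aurkb at 0.58 having the lowest p. The average over both Dscr1 labels called 0 of 35 in limma as well (0 at an unadjusted p under 0.05; 0.0157% of all genes). For the interaction of Dscr1 loss with Apoe loss limma called 0 of 35, with 1 at an unadjusted p under 0.05 and 0.00787% of all genes called. That member was Kif23 (-1.05 ± 0.40, adjusted p = 0.628, limma), which was higher in ApoeKO than in WT and lower in double KO than in Dscr1KO.

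Suturing was tested in limma over 7 arrays, 3 of sutured and 4 of intact corneas of the WT and Dscr1KO labels, with genotype as a term. It called 0 of 35 members, with 0 at an unadjusted p under 0.05, and 0.0% of all genes, and the median change was -0.01 for replication genes, -0.07 for mitosis genes and -0.03 for all genes. The lowest p among the members was that of Bub1b, which read 71.7, 49.3 and 63.4 on the 3 sutured arrays and from 77.5 to 145.6 on the 4 intact ones (-0.55 ± 0.26, adjusted p = 0.531, limma). When the WT arrays were fitted alone, 1 member was called, Mcm4, which rose, and 4.68% of all genes were called (3.28% higher). Mcm4 read 285.8 and 264.6 in intact WT, 445.2 and 636.6 in sutured WT, 208.4 and 444.4 in intact Dscr1KO and 181.6 in sutured Dscr1KO.

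The sutured corneas of the WT and Dscr1KO genotypes stood apart in the replication genes. At day 5, all 6 MCM genes and Rrm2 were 2-fold or more lower in sutured Dscr1KO than in sutured WT, and all 10 replication genes were lower. Each side has 1 array, so the difference has no replicate check and no test. Of the 35 members 7 were 2-fold or more lower and 0 were 2-fold higher, where 1.93% of all genes were lower by that much and 4.17% higher (6.1% in either direction). The median log2 difference was -1.22 for replication genes, -0.24 for mitosis genes and 0.06 for all genes tested.

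At day 5 Mcm5 read 585.4 for sutured WT and 173.8 for sutured Dscr1KO, a log2 difference of -1.73. The other helicase subunits had differences of -1.59 for Mcm3 (293.0 and 95.1), -1.38 for Mcm2 (145.0 and 53.4), -1.28 for Mcm4 (445.2 and 181.6), -1.17 for Mcm7 (758.7 and 336.2) and -1.11 for Mcm6 (488.1 and 224.0). Rrm2, the small subunit of ribonucleotide reductase, read 1006.3 and 351.2 (-1.51), and Pcna read 1371.7 and 731.8. The sutured Dscr1KO array was the lowest of all 12 arrays for 7 of 10 replication genes. Over every MCM probe set above the filter, 14 of 17 were 2-fold or more lower in Dscr1KO, 16 of 17 were lower, and 13 of 17 had their lowest value of 12 arrays there.

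Of the mitosis genes 0 of 25 were past 2-fold in that comparison. On these arrays Mki67 read 678.5 for WT and 602.7 for Dscr1KO, Top2a 486.4 and 336.9, and Cdk1 172.8 and 117.7. Ccnb2, Cenpe and Kif20a had the highest differences, 0.07, 0.07 and 0.04. The sutured Dscr1KO array was the lowest of 12 for 3 of 25 mitosis genes.

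Markers of other cells differed between these 2 arrays as well. The neutrophil sum was 10909.9 in sutured WT and 1209.7 in sutured Dscr1KO at day 5. That fall lay in S100a8 (4596.4 and 642.3) and S100a9 (6191.6 and 390.1). The other neutrophil markers were higher in Dscr1KO: Csf3r (62.9 and 70.8), Cxcr2 (13.6 and 17.8), Mmp8 (10.2 and 12.5) and Mmp9 (35.2 and 76.2). The macrophage sum was 1947.2 and 3950.4. The pigment cell sum was 490.8 and 1738.7 over 5 of 5 markers, while the basal epithelium sum was 19109.5 and 18579.8 over 6 of 6 markers. Of these basal markers Krt15 was higher in Dscr1KO (4011.5 and 5531.3). The others were lower, among them Krt14 (4278.5 and 3049.1) and Itgb4 (377.9 and 219.5). Their part in the difference of the replication genes was not tested. The first intact replicates of Dscr1KO and double KO, with Mcm5 at 293.0 and 294.4, lay between sutured Dscr1KO and intact WT.

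**Figure D4:**
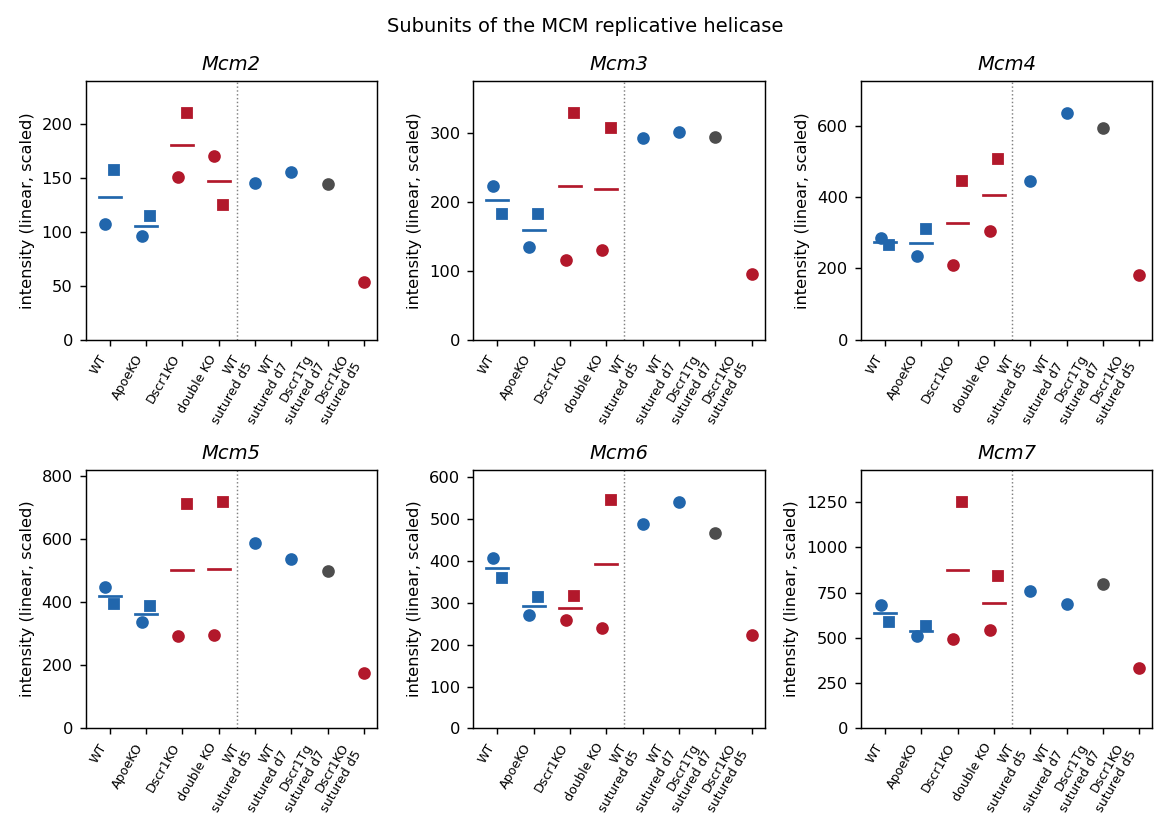
Intensity (linear, scaled) of the 6 MCM helicase genes on each array; circles are replicate 1 or the only array, squares replicate 2, lines the mean of 2 replicates, blue with Dscr1, red without it and grey transgenic. The sutured Dscr1KO array is the lowest of the 12 in every panel, and the 2 replicates of intact Dscr1KO are wide apart for Mcm3, Mcm4, Mcm5 and Mcm7.

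Whether the effect of suturing differs between WT and Dscr1KO was tested by an interaction term in limma over the same 7 arrays, a comparison added after results had been seen. On the Dscr1KO side the intact and sutured arrays also differ in sex and tissue content. Xist read 4104.0 and 5385.2 intact and 6.0 sutured, and the keratinisation sum was 17830.0 and 32217.1 intact and 341.6 sutured. The WT arrays were low in both. An effect of suturing in Dscr1KO therefore cannot be told apart from these differences. No member was called, 4 had an unadjusted p under 0.05, and 0.606% of all genes were called (0.519% lower and 0.0866% higher). The 4 were Mcm2 (-1.87 ± 0.41, adjusted p = 0.140), Mcm5 (-1.79 ± 0.61, adjusted p = 0.291), Mcm4 (-1.68 ± 0.57, adjusted p = 0.296) and Mcm6 (-0.77 ± 0.29, adjusted p = 0.321), in limma. All 10 replication genes had a negative interaction, with a median of -1.48, against 0.03 over all genes. This count turned on the intact Dscr1KO replicates: without replicate 1 limma called 12 members, all lower: Cdk1, Mad2l1, Mcm2 to Mcm7, Pcna, Rrm1, Rrm2 and Top2a. That fit has Dscr1KO replicate 2, the library with conflicting labels, as its only intact Dscr1KO array, and 17.1% of all genes were called in it (7.72% lower). Without replicate 2 the count was 0, with 2.27% of all genes called.

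**Figure D5:**
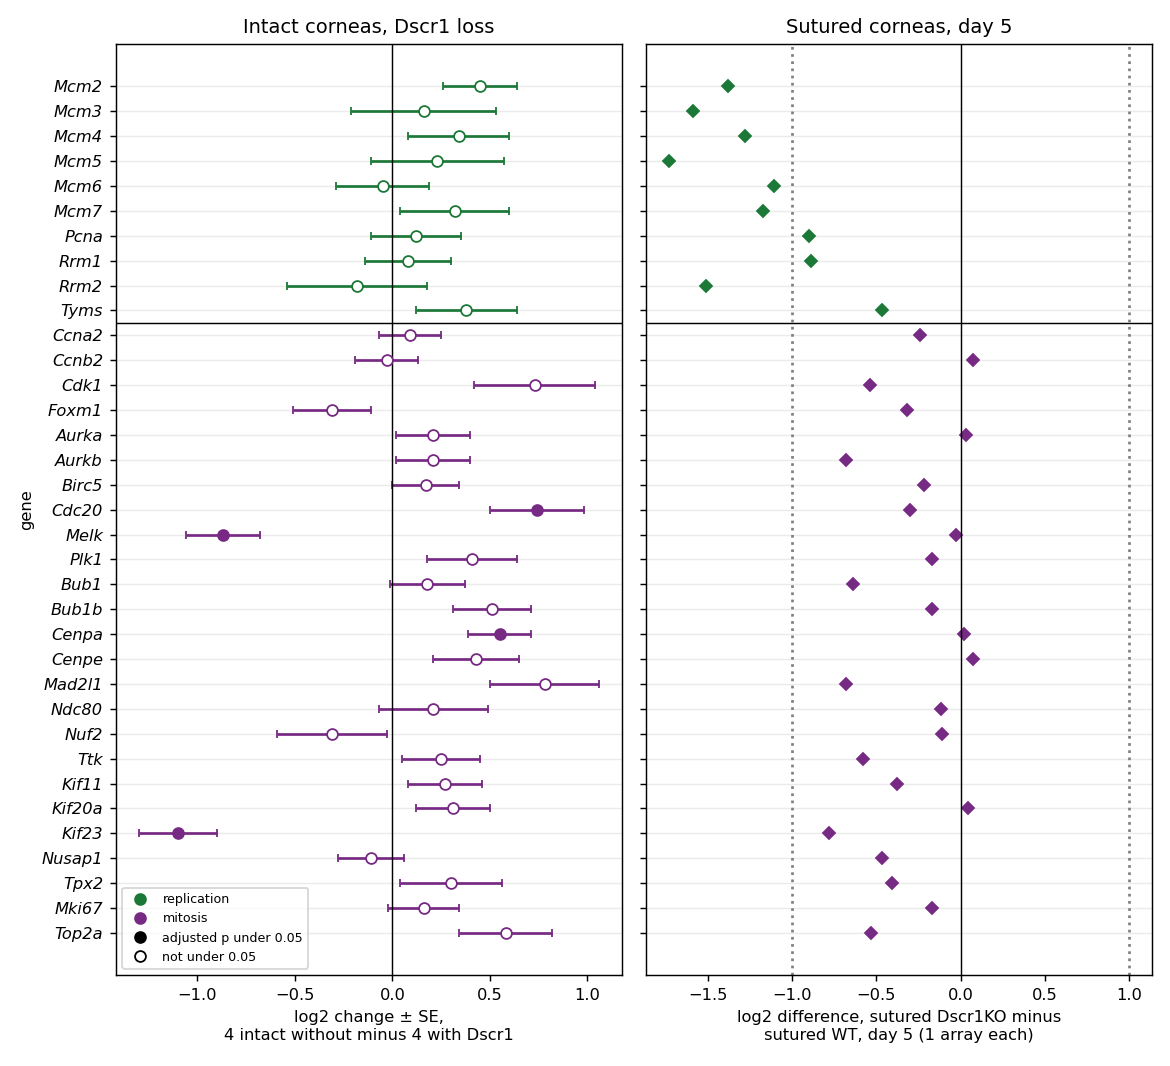
Left, log2 change ± SE of each member between 4 intact corneas without and 4 with Dscr1 (limma; filled where called); right, log2 difference between the sutured Dscr1KO and sutured WT arrays at day 5, 1 array each, with dotted lines at 2-fold. Kif23 and Melk are lowest on the left, and on the right the 7 genes beyond the dotted line are all replication genes.

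At day 7 no member differed 2-fold between the sutured Dscr1 transgenic cornea and sutured WT. The count was 0 of 35, against 4.29% of all genes (0.756% higher and 3.53% lower), and the median difference was -0.07 for replication and 0.13 for mitosis genes. Ndc80, a kinetochore subunit that binds microtubules, had the highest difference at 0.91 (54.4 in transgenic and 27.2 in WT), followed by Kif23 at 0.50 and Aurkb at 0.39. The lowest were Tyms at -0.47 and Bub1b and Foxm1 at -0.31 each. Mcm5 read 497.5 and 535.5, and Mki67 read 583.0 and 454.4.

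The sutured WT corneas of day 7 and day 5 were also compared, again with 1 array each and no test. At day 7, 23 of 25 mitosis genes were lower than at day 5, with a median of -0.40, while 5 of 10 replication genes were lower with a median of -0.04, and the median of all genes was 0.07. Kif23 alone was past 2-fold, at 275.2 on day 5 and 130.3 on day 7 (-1.06), and 2.0% of all genes were lower by that much (3.32% higher, 5.32% in either direction). Ndc80 (-0.88) and Cdc20 (-0.82; 733.8 and 414.3) followed, while Tyms (0.95), Mcm4 (0.51) and Mcm6 (0.15) had the highest differences. The neutrophil sum was 10909.9 on day 5 and 2186.7 on day 7. That fall lay in S100a8 (4596.4 and 1085.1), S100a9 (6191.6 and 719.5) and, slightly, Cxcr2 (13.6 and 11.3). Csf3r (62.9 and 78.5), Mmp8 (10.2 and 11.2) and Mmp9 (35.2 and 281.1) were higher on day 7. The lens sum over 8 of 8 markers was 235.1 and 3535.0. Their part was not tested.

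Further genes of the cycle were taken from lists of the same pathways. Of 30 other replication genes limma called 0 for Dscr1 loss, with 3 at an unadjusted p under 0.05, and the lowest p was that of Gins2, of the GINS complex that works with the MCM helicase (-0.49, adjusted p = 0.0770, limma). Of 41 other mitosis genes 3 rose and 2 fell, a smaller share than the 31.7% called over all genes. Cdc25b, a phosphatase that activates Cdk1, rose by 0.80 (adjusted p = 0.00925, limma), Ncapg, of condensin, by 0.81 (adjusted p = 0.0308, limma) and Kif22, a chromosome motor, by 0.73 (adjusted p = 0.0374, limma). Cenpf fell by 0.57 (adjusted p = 0.0375, limma), and Anln was the other gene that fell.

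Of 14 genes that hold the cycle back 8 were called, 3 rising and 5 falling, where 16.3% of all genes rose and 15.4% fell. Cdkn1b, the inhibitor p27, read 774.3 to 884.2 in the 4 intact corneas with Dscr1 and 281.1 to 616.0 in the 4 without it, and fell by 1.13 (adjusted p = 0.00275, limma). Btg1 and Btg2, antiproliferative genes, rose by 1.02 (adjusted p = 0.000633, limma) and 1.15 (adjusted p = 0.0180, limma). Cdkn2a rose by 1.46 (adjusted p = 0.00238, limma), though its values were 5.0 and 4.3 in WT and 32.3 or more in all 6 intact corneas of the other genotypes. Cdkn2b, Gadd45a, Ccng1 and Rb1 fell.

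Among 10 genes of entry into the cycle, 2 rose and 2 fell for Dscr1 loss, against the same 31.7% called over all genes. Ccnd1, the G1 cyclin, read 1638.4 to 2101.3 in the corneas with Dscr1 and 845.3 to 1168.4 in those without, and fell by 0.79 (adjusted p = 0.00249, limma). Cdk2 fell by 0.49 (adjusted p = 0.0473, limma). Myc read 128.0 to 164.0 and 187.7 to 317.2, and rose by 0.84 (adjusted p = 0.0103, limma), and E2f2 rose by 0.83 (adjusted p = 0.0314, limma).

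In the sutured corneas of day 5 the other replication genes resembled the members. In Dscr1KO 29 of 30 were lower than in WT and 7 were 2-fold or more lower: Uhrf1 (-2.0), Lig1 (-1.64), Dtl (-1.54), Pole (-1.41), Cdt1 (-1.35), Gins2 (-1.19) and Gins1 (-1.06). Of 41 other mitosis genes 2 were 2-fold lower, Ncapg (-1.05) and Cenph (-1.01), and 30 were lower in all. Over all genes tested 1.93% were 2-fold or more lower, and the median difference was 0.06. These values come from the same pair of arrays as those of the members.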

How the data were processed

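Whole-cornea RNA (100 ng, per the labels' protocols) was hybridised to Affymetrix arrays. The deposited values are linear intensity per probe set, which the authors scaled on each array, seen as a trimmed mean of 100.0 with 2% left out at each end; which software did so was not given in the sources used here. Symbols come from the platform table: 34958 of 45101 probe sets carry 1 symbol. Values were taken as log2(intensity + 3.6), the 20th percentile, so folds of dim genes are understated. Genes at or above the 40th percentile were tested (12706) with limma 3.58.1 in R 4.3.3, using an intensity trend, and p was adjusted over all of them (Benjamini-Hochberg, 0.05). Intact groups shared 1 fit of 8 arrays. The labels call the replicates biological, and the small number of arrays limits the precision. Sutured arrays without replicates were compared at 2-fold with no test. The fit was tested on simulated data. Genes given on every array were Mki67, Top2a, Cdk1, Pcna, Mcm5 and, per role, up to 3 called members or the lowest p; other comparisons name up to 4 called or the 2 lowest p. Members and lists were chosen with earlier results of these data known. Alternatives were other filters, pseudocounts (0.6 and 6.4) and normalization, no trend, a replicate block, only the groups compared, every probe set, and arrays left out. Promoters are from RefSeq, without the 50 bases after the start.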

Additional observations from a re-analysis of the deposited data

Results flagged for a closer look

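For 10 members both sutured WT arrays (day 5 and day 7) lay beyond both intact WT arrays on one side, and the sutured Dscr1KO array lay beyond both intact Dscr1KO arrays on the other side. Members whose sutured and intact arrays overlap, such as Mcm2, are not among them. In 9 of them the sutured WT arrays were higher and the sutured Dscr1KO array lower: the difference between the Dscr1KO and the WT effect of suturing was -1.79 on the log2 scale for Mcm5, -1.68 for Mcm4, -1.57 for Mcm3, -1.41 for Mcm7, -1.20 for Cdk1, -1.13 for Mad2l1, -0.94 for Top2a, -0.77 for Mcm6 and -0.39 for Aurkb. Melk went the opposite way at 0.85. The interaction term of limma gave adjusted p from 0.291 to 0.683 for these 10, so none passed. Mcm2, with the largest interaction of the members at -1.87, had a sutured WT value of 145.0 at day 5 within the intact WT values of 107.5 and 156.7. Of all genes tested 20.8% were separated in this way in either direction, and 9.31% were higher in WT and lower in Dscr1KO. The Dscr1KO side is 1 sutured array against 2 intact arrays that differed widely in these genes. Those intact arrays were also far higher than the sutured one in Xist and in the keratinisation markers. Suturing cannot be told apart from these differences on that side. Groups of 2 arrays were too small to test for a sample far from the others.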

How the results depend on the processing

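Counts of called members moved most with single arrays. Leaving out 1 array at a time, limma called 1 to 13 members for Dscr1 loss (4 with all arrays), 0 to 10 for Dscr1KO against WT (0), 0 to 6 for double KO against WT and against ApoeKO (2 each), and 0 to 12 for suturing by genotype (0). The larger counts came without a Dscr1KO replicate, in fits that also called more of all genes: 44.7% for Dscr1 loss and 30.4% for Dscr1KO against WT. Without an intensity trend 2 members were called for Dscr1 loss (28.9% of all genes) and 1 for double KO against WT (17.7%). Without both doubtful libraries 2 were called for Dscr1 loss (20.4% of all genes). With the replicate number as a block, double KO against WT called 1 member, Kif23. Same-numbered arrays did not deviate together over all genes (correlations from -0.05 to 0.07 over 12706 genes). Such a correlation cannot show whether they do so in a small set of genes. The replication genes were higher in replicate 2 in ApoeKO (10 of 10), Dscr1KO (10 of 10) and double KO (9 of 10), but not in WT (1 of 10). The block moved no other count of members by over 1.5 times. With WT arrays only, suturing called 1 member. With quantile normalization 1 member was past 2-fold in transgenic against WT at day 7 (0 before), and with a pseudocount of 0.6 there were 2 in WT day 7 against day 5 (1 before). The uncalled suturing changes of Mcm2 (-0.55) and Tyms (-0.19) turned sign: Mcm2 was 0.20 with WT arrays only and 0.20 without the sutured Dscr1KO array, and Tyms was 0.43, 0.43 and, without Dscr1KO replicate 2, 0.02. Leaving out 1 array at a time gave -0.87 to 0.20 for Mcm2 and -0.58 to 0.43 for Tyms. The cause was not tested. Of the other alternatives for counts of members, 156 stayed within 1.5 times of the count given. That number includes every count of 0 that stayed 0, so it does not measure how stable the counts above 0 were. Every fit rests on 1 or 2 arrays per group, Tyms lies near background, and the intact groups without Dscr1 differ from the others in neutrophil, macrophage and keratinisation markers, which cannot be told apart from genotype here.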

Other observations

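Regulators of cycle entry and exit also differed between the sutured arrays, 1 array each and without a test. Myc, a driver of cell growth, read 637.8 in WT at day 5, 211.7 in WT at day 7, 275.7 in transgenic at day 7 and 339.2 in Dscr1KO at day 5, against 128.0 and 150.6 in intact WT. Its log2 difference between sutured WT at day 7 and day 5 was -1.57. Btg2, an antiproliferative gene, read 526.5 for WT and 1264.5 for Dscr1KO at day 5 (1.26), the highest of the 12 arrays. E2f2, an activating E2F factor, read 12.4 and 4.1 on the same arrays (-1.06), near the added constant, and all 10 genes of the entry list were lower in Dscr1KO than in WT at day 5.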
